A study of Mus musculus with 6 samples.

Results

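The 38 genes described here encode proteins that carry glucose into the heart, break it down to pyruvate and lactate, pass pyruvate to mitochondria, and store and release glycogen. They were taken by symbol from the 22298 genes of the deposited table. All 38 were found, in 39 rows, because the symbol Aldoa belongs to 2 identifiers. The second of these (ENSMUSG00000114515) had between 0 and 5 estimated counts per library and was not tested. The other 38 rows passed the filter on low counts, and 13708 genes were tested in all. Both groups were hearts of wild-type (WT) female mice aged 18 months, 3 with sham surgery and 3 with TAC. In work on the heart TAC stands for transverse aortic constriction, which puts the left ventricle under pressure load. The sources used here give neither the strain, nor the time from surgery to sampling, nor the part of the heart taken. The sample titles number the hearts within each group, but nothing states outright that each sample came from a separate animal. If any did not, p-values reflect in part technical spread.

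Glucose enters heart muscle cells through the insulin-responsive carrier GLUT4 (Slc2a4) and the basal carrier GLUT1 (Slc2a1), and hexokinase traps it as glucose phosphate. Glycolysis then yields pyruvate, which is either reduced to lactate or oxidized in mitochondria by pyruvate dehydrogenase, an enzyme that its own kinases switch off. Many steps have a muscle-type isoform and a more widely expressed isoform from separate genes, and the adult heart, which mainly burns fatty acids, is known for a shift toward glucose use under pressure load.

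Libraries held between 19747265 and 27549838 estimated counts. On the first principal component of log2 CPM (CPM, the count of a gene relative to the TMM-scaled size of its library) the sham libraries lay between -37.3 and -31.4, TAC replicates 2 and 3 at 48.9 and 53.5, and TAC replicate 1 at 0.65. TAC replicate 1 thus stood apart from the other TAC libraries, and results below are also given without it. That choice was made on these same data, and TAC replicate 1 was the TAC library nearest to sham. Leaving it out therefore favours larger differences between groups, and calls made without it are no separate support. The fit without it called 23.2% of all genes, against 1.66% with all libraries. The labelled tissue matched its markers: all 8 cardiomyocyte markers were between 69.8 and 9056 FPKM in every library (FPKM is scaled by gene length and depth). None of 7 markers of fast skeletal muscle was above 1.77 FPKM, and Myh4 was listed at 0 throughout.

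No gene of the list passed the test between TAC and sham. Of the 38 genes, 0 were higher and 0 lower (edgeR's quasi-likelihood test, threshold 0.05 on p-values adjusted over all genes by Benjamini and Hochberg), where 1.12% of all genes were called higher and 0.54% lower. The lowest adjusted p was 0.0957, for the glycogen branching enzyme gene Gbe1. At an unadjusted p under 0.05, 5 genes were higher (Slc16a1, Slc16a3, Hk1, Pgam1 and Gbe1) and 5 lower (Pfkm, Eno3, Pdk2, Pygm and Pygb). This was 13.2% of the list each way, against 16.3% and 9.26% of all genes. In CPM, all 3 TAC values lay above all 3 sham values in 4 genes (10.5%, against 18.4% of all genes) and below them in 7 (18.4%, against 13.1%). The median log2 fold change was -0.08, beside 0.03 over all genes. It was negative in 24 genes (63.2%, against 47.1% of all genes) and positive in 14, where 52.9% of all genes were positive. DESeq2's Wald test called 5 higher (Slc16a1, Slc16a3, Hk1, Pgam1 and Gbe1, 13.2% against 7.26% of its genes) and 1 lower (Eno3, 2.63% against 4.06%). With limma-voom 0 were called, where 0.70% of all genes were called higher and 0.55% lower.

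The 3 TAC libraries differed among themselves. The median of the list against the sham mean was 0.03 log2 units in TAC replicate 1, -0.07 in TAC replicate 2 and -0.21 in TAC replicate 3, where the medians of all genes were 0.03, 0.00 and 0.04. Without TAC replicate 1, 6 genes were called higher (Slc16a1, Slc16a3, Hk1, Pfkp, Pgam1 and Gbe1, 15.8% of the list against 13.2% of all genes in that fit) and 7 lower (Slc2a4, Pfkm, Eno3, Ldhb, Pdk2, Pygm and Pygb, 18.4% against 10%). With any other library left out, 0 of the 38 were called, where between 0.086% and 0.964% of all genes were called in either direction. The 38 genes together made up 1.89, 1.93 and 1.92% of the estimated counts in sham replicates 1, 2 and 3, and 1.86, 1.67 and 1.62% in TAC replicates 1, 2 and 3. Leaving mitochondrially encoded genes out of the total, the shares were 2.66, 2.65 and 2.59% and 2.67, 2.37 and 2.22%. TAC replicates 2 and 3 were below sham both ways, while TAC replicate 1 was the highest of all on the second scale.

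**Figure D1:**
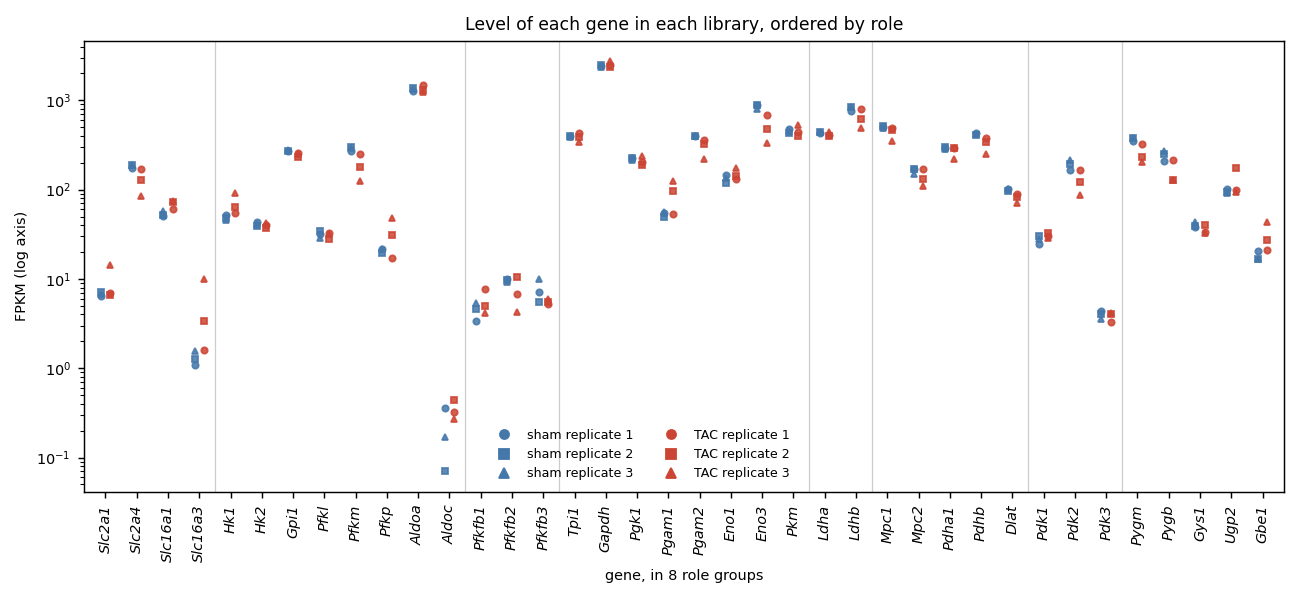
FPKM on a log axis for each gene, ordered by role, with sham libraries in blue and TAC libraries in red and 1 symbol per replicate number. Gapdh and Aldoa are at the top and Aldoc at the bottom, and TAC symbols of Slc2a4, Pfkm, Eno3 and Pdk2 spread downward while those of Slc16a3, Pfkp and Pgam1 spread upward.

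Levels per gene length spanned a wide range, as the plot of FPKM by gene shows. In sham hearts the highest were Gapdh, a dehydrogenase of glycolysis, at 2416 ± 45.7 FPKM, and Aldoa, the muscle-type aldolase, at 1329.6 ± 39.5 FPKM (SD, n = 3, here and in the next sentences). Eno3, the muscle enolase, and Ldhb, the heart subunit of lactate dehydrogenase, came next at 860.1 ± 45.8 and 815 ± 39.7 FPKM, and their sham values overlapped. At the low end were Slc16a3 at 1.303 ± 0.236 FPKM and Aldoc, the brain-type aldolase, at 0.200 ± 0.147 FPKM. The muscle-type gene had the higher level at several steps. Slc2a4 stood at 183 ± 8.55 FPKM and Slc2a1 at 6.80 ± 0.275 FPKM. Pfkm, the muscle phosphofructokinase, stood at 290.0 ± 13.8 FPKM, Pfkl at 31.8 ± 2.60 FPKM and Pfkp at 21 ± 1.18 FPKM. Pgam2, the muscle phosphoglycerate mutase, stood at 401 ± 3.06 FPKM and Pgam1 at 53.0 ± 3.47 FPKM. Of the hexokinases, Hk1 at 48.7 ± 3.44 FPKM was above Hk2 at 41.2 ± 1.81 FPKM in every sham library.

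In what follows, 3 values for a group are those of replicates 1, 2 and 3 in that order, in CPM, and coordinates are in GRCm38. Of the glucose and lactate carriers, 0 of 4 passed. Slc2a4, the GLUT4 gene (chromosome 11, 69942539 to 69948188, minus strand), gave 407, 420.0 and 399 in sham hearts and 421, 296 and 178 in TAC hearts. TAC replicates 2 and 3 lay below every sham library and TAC replicate 1 above them all (log2 difference -0.45, SE 0.27, adjusted p = 0.329). In the fit that omits TAC replicate 1 it was called lower, at -0.80 (adjusted p = 0.0449). Slc2a1, the GLUT1 gene (chromosome 4, 119108711 to 119137983, plus strand), gave 19.2, 21 and 19.1 in sham hearts and 22.7, 20.3 and 39.3 in TAC hearts, with TAC replicate 3 far above the rest (log2 difference 0.47, SE 0.24, adjusted p = 0.252). Its locus overlaps the antisense genes Gm12867 and Gm12868, and the sources do not say that reads were told apart by strand.

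The monocarboxylate carriers move lactate and pyruvate across the cell membrane. Slc16a1 (MCT1) gave 229, 231 and 247 with sham surgery and 285, 329.5 and 309 with TAC. The groups did not overlap, and TAC was 1.31-fold higher (log2 difference 0.39, SE 0.12, adjusted p = 0.106). Slc16a3 (MCT4), typical of cells that export much lactate, had the highest log2 fold change of the 38 genes. It gave 2.93, 2.39 and 3.69 with sham surgery and 3.05, 6.73 and 18.8 with TAC, so TAC replicate 1 lay within the sham range and TAC replicate 3 far above it (log2 difference 1.66, SE 0.58, adjusted p = 0.128). Its counts were fractional in 3 libraries.

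Among the genes of hexokinase and upper glycolysis, 0 of 8 passed. Hk1, the broadly expressed hexokinase (chromosome 10, 62268855 to 62379908, minus strand), gave 197, 182 and 172 in sham hearts and 220.4, 250.4 and 312 in TAC hearts. All TAC values lay above all sham values, 1.42-fold in all (log2 difference 0.51, SE 0.16, adjusted p = 0.1003). Hk2, the hexokinase of insulin-sensitive muscle, gave 240.4, 219.8 and 220.1 against 230.0, 208 and 219, and the groups overlapped (log2 difference -0.05, SE 0.12, adjusted p = 0.818). Both hexokinase genes overlap an annotated antisense gene. Gpi1, the isomerase that follows hexokinase, ranged over 585 to 605 in sham and 507 to 579.6 in TAC, without overlap (log2 difference -0.16, SE 0.13, adjusted p = 0.462).

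Phosphofructokinase catalyses the committed step of glycolysis, and its 3 genes lay on different sides of 0. Pfkm, the muscle subunit (chromosome 15, 98092589 to 98132451, plus strand), gave 796, 867 and 828 in sham hearts and 747, 523 and 338 in TAC hearts. No TAC value reached the lowest sham value, and TAC replicate 3 was the lowest (log2 difference -0.63, SE 0.26, adjusted p = 0.178). Pfkp, the platelet-type subunit, gave 69.1, 64.6 and 69.7 against 59.4, 102 and 143. TAC replicate 1 was the lowest of the 6 libraries and TAC replicates 2 and 3 the highest (log2 difference 0.58, SE 0.27, adjusted p = 0.221). The counts of Pfkp were fractional in all 6 libraries, and Pitrm1 overlaps it on the other strand, as Senp1 does Pfkm. Pfkl, the liver-type subunit, ranged over 99.97 to 105 in sham and 91.2 to 108 in TAC (log2 difference -0.08, SE 0.11, adjusted p = 0.670). Aldolase splits the product of this step. Aldoa gave 1909, 2043 and 1936 against 2279, 1901 and 1706, and its group means were 1963 and 1962 (edgeR adjusted p = 0.999). Aldoc held only 5 to 20 estimated counts per library (log2 difference 0.73, SE 0.56, adjusted p = 0.437).

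The Pfkfb genes encode bifunctional enzymes that make and remove an activator of phosphofructokinase, and 0 of 3 passed. Pfkfb1 gave 5.54, 8.02 and 8.40 against 14.5, 8.51 and 6.04 in TAC (log2 difference 0.40, SE 0.32, adjusted p = 0.459). Pfkfb2, the heart-type enzyme, gave 31.2, 30.7 and 27.2 against 24.3, 32.1 and 12.8 (log2 difference -0.37, SE 0.29, adjusted p = 0.4495). The inducible Pfkfb3 gave 32.2, 24.1 and 42.9 against 25.2, 24.5 and 25.4 (log2 difference -0.40, SE 0.20, adjusted p = 0.244). The groups overlapped for all 3, and for Pfkfb3 the spread was in the sham group.

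**Figure D2:**
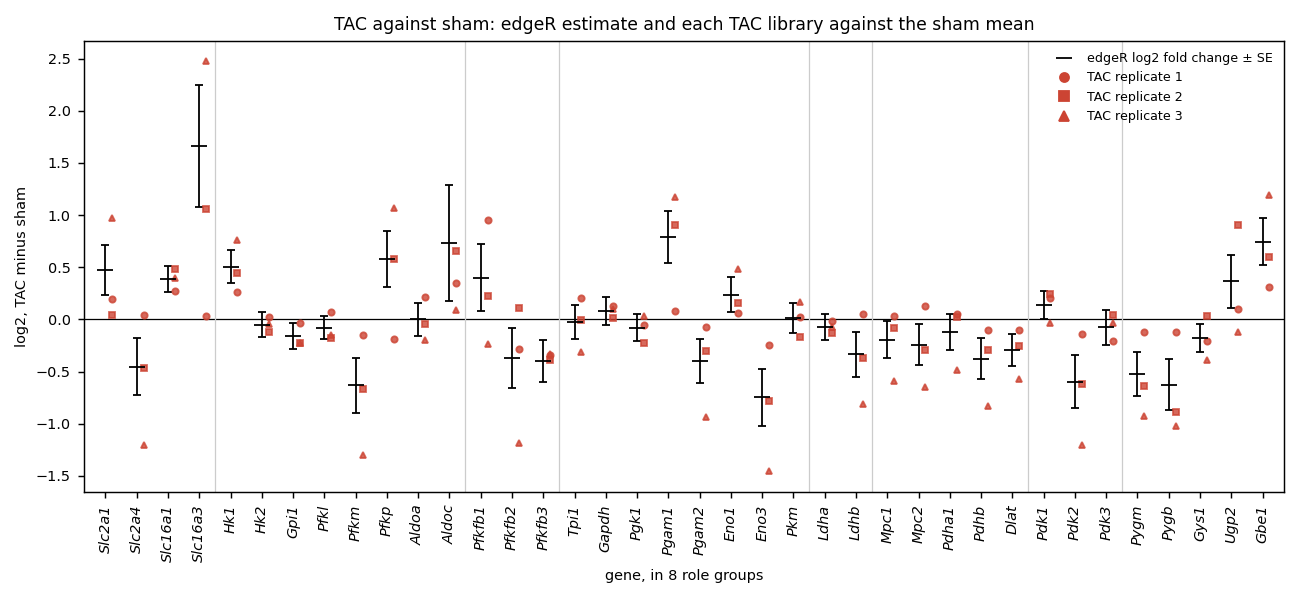
For each gene, ordered by role, the edgeR log2 fold change of TAC over sham with its SE (black) and the 3 TAC libraries against the sham mean (red symbols, log2 of CPM + 0.5). For Slc16a3, Pfkm, Pgam1, Eno3 and Gbe1 the symbol of TAC replicate 3 lies farthest from 0 and that of TAC replicate 1 nearest.

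In lower glycolysis 0 of 8 genes passed, and the log2 fold changes farthest from 0 were those of Pgam1 and Eno3. Eno3, the muscle enolase (chromosome 11, 70657202 to 70662513, plus strand), gave 1266, 1239 and 1103 in sham hearts and 1015, 697 and 437 in TAC hearts. No TAC value reached the sham range, and TAC replicate 1 was nearest to it. Its log2 fold change was the lowest of the 38 genes (log2 difference -0.75, SE 0.28, adjusted p = 0.143), and leaving out TAC replicate 1 brought a call at -1.09 (adjusted p = 0.0181). Eno1, the widely expressed enolase, gave 228, 173 and 204 against 209.6, 224 and 281, with overlap (log2 difference 0.24, SE 0.16, adjusted p = 0.387). Counts of Eno1 were fractional in 5 libraries.

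For phosphoglycerate mutase, too, the widely expressed gene had a positive log2 fold change and the muscle gene a negative one. Here the widely expressed gene was farther from 0, where for enolase it was the muscle gene. Pgam1, the widely expressed gene (chromosome 19, 41911923 to 41918660, plus strand), gave 97.8, 88.1 and 96.0 in sham hearts and 99.1, 176 and 212 in TAC hearts. The lowest TAC value, in replicate 1, was just above the highest sham value (log2 difference 0.79, SE 0.25, adjusted p = 0.103). In FPKM that library, at 53.1, lay within the sham range of 49.0 to 55.5. Without TAC replicate 1 the gene was called higher, at 1.03 (adjusted p = 0.00438). Pgam2, the muscle gene (chromosome 11, 5801640 to 5803733, minus strand), gave 342, 343 and 325 against 319.5, 273 and 176, again without overlap (log2 difference -0.39, SE 0.21, adjusted p = 0.272). Gapdh, Tpi1 (triosephosphate isomerase), Pgk1 (phosphoglycerate kinase) and Pkm (muscle-type pyruvate kinase) had log2 fold changes from -0.08 to 0.08 and edgeR adjusted p-values from 0.729 to 0.970. Gene counts did not tell apart the splice forms of Pkm, and the counts of Gapdh were fractional in all libraries.

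The 250 bases before the start of these 4 genes are shown because their pairs had the largest ratio differences, given further on, among the pairs whose groups did not overlap. They precede the RefSeq starts in GRCm38.p6 and are written 5′ to 3′ on the strand of the gene: chr19:41911621-41911870 (Pgam1, plus), chr11:5803797-5804046 (Pgam2, minus), chr4:150236458-150236707 (Eno1, plus) and chr11:70656926-70657175 (Eno3, plus). Capitals mark matches on either strand to ACGTG and GCGTG (cores of hypoxia response elements), CANNTG (the E-box), AAGGTCA (a site of orphan nuclear receptors) or the MEF2 motif.
Pgam1: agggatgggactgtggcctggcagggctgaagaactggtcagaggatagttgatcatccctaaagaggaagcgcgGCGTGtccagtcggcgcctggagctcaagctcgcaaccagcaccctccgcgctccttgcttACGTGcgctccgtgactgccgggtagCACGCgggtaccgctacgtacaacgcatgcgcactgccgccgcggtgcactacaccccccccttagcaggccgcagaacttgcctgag
Pgam2: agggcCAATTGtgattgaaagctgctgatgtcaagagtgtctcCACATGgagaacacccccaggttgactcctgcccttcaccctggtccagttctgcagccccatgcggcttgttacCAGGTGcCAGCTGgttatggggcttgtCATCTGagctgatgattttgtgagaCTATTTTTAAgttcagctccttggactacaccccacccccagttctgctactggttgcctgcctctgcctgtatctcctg
Eno1: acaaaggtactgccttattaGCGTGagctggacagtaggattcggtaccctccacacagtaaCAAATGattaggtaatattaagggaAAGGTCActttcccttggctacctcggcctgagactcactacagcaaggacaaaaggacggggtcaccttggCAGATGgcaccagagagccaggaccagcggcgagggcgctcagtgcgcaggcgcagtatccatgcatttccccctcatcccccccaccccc
Eno3: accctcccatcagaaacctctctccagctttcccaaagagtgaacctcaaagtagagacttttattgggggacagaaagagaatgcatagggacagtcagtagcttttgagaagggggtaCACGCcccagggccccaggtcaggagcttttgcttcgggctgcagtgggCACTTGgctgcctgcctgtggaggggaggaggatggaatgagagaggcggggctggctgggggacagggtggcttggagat
The widely expressed genes had more CpG in this window (22 in Pgam1 and 9 in Eno1) than the muscle genes (1 in Pgam2 and 3 in Eno3), and the median of all 32851 RefSeq starts was 6. Pgam1 held 1 ACGTG and 2 GCGTG. Pgam2 held neither of these but had 5 E-boxes and 1 MEF2 match, which 2.92% of all starts had. Eno1 held 1 GCGTG, 2 E-boxes and 1 AAGGTCA, which 4.08% of all starts had, and Eno3 held 1 GCGTG and 1 E-box.

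Of the 38 genes, 37 had a start in the RefSeq table (all but Slc2a4), with a median of 15 CpG in the window. ACGTG was in 15 of the 37 (40.5%, against 16.6% of all starts) and GCGTG in 21 (56.8%, against 28.2%). The E-box was in 23 (62.2%, against 66.2%), AAGGTCA in 1, the MEF2 motif in 1 and TATAAA in 0 (12.4% of all starts). CACGTG counts as an E-box and as ACGTG on each strand, so matches can outnumber sites. Ldha held 5 ACGTG matches, the most of the 37, before a RefSeq start that lies 4329 bases from the gene start in the GENCODE annotation. The start used for Pfkfb2 lay 13205 bases from its GENCODE gene start, and the next farthest after Ldha was that of Mpc1, at 883. Those windows are counted in the shares above. All hits given here are matches of letters, not sites of binding, and motifs that contain CG also depend on how much CpG a window holds.

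Lactate dehydrogenase interconverts pyruvate and lactate, and 0 of its 2 genes passed. Ldhb, the heart subunit (chromosome 6, 142490249 to 142507957, minus strand), gave 978, 1074 and 1025 in sham hearts and 1063, 793 and 584 in TAC hearts. TAC replicate 1 was within the sham range and the other two below it (log2 difference -0.34, SE 0.21, adjusted p = 0.353), and without TAC replicate 1 the gene was called lower, at -0.59 (adjusted p = 0.0482). Ldha, the muscle subunit (chromosome 7, 46841475 to 46855627, plus strand), gave 698, 719.6 and 677 against 690.5, 637 and 663, a narrower spread (log2 difference -0.07, SE 0.12, adjusted p = 0.734).

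The 5 genes of pyruvate entry into mitochondria and of pyruvate dehydrogenase had negative log2 fold changes, and 0 passed. Pdhb, a subunit of the first enzyme of the complex, gave 662, 631 and 625 against 597, 523 and 359, without overlap (log2 difference -0.38, SE 0.19, adjusted p = 0.260). Dlat, the acetyltransferase of the complex, gave 416, 399 and 396 against 378, 338 and 272, also without overlap (log2 difference -0.29, SE 0.15, adjusted p = 0.258). In both, values were lowest in TAC replicate 3, as they were in the remaining 3 genes. Pdha1, another subunit of the first enzyme, was nearest to 0 (log2 difference -0.12, SE 0.17, adjusted p = 0.694), and its counts were fractional in all libraries. The pyruvate carrier genes Mpc1 (log2 difference -0.19, SE 0.18) and Mpc2 (log2 difference -0.24, SE 0.20) lay between.

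Of the kinases that inactivate pyruvate dehydrogenase, 0 of 3 passed. Pdk2, the most abundant of the 3 per length, gave 383, 439.7 and 468 in sham hearts and 389.6, 278 and 186 in TAC hearts. TAC replicates 2 and 3 were below the sham range and TAC replicate 1 within it (log2 difference -0.60, SE 0.25, adjusted p = 0.184). In the fit that omits TAC replicate 1 it was called lower, at -0.90 (adjusted p = 0.0251). Pdk1, a target of hypoxia signalling, gave 129.8, 160.1 and 142 against 165, 169.9 and 140.4 (log2 difference 0.14, SE 0.13, adjusted p = 0.541). Pdk3 ranged over 7.25 to 9.49 in sham and 7.25 to 8.68 in TAC (log2 difference -0.08, SE 0.17, adjusted p = 0.798).

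Glycogen genes lay on both sides of 0, and 0 of 5 passed. Gbe1, the branching enzyme (chromosome 16, 70313949 to 70569716, plus strand), gave 62.8, 50.9 and 48.5 in sham hearts and 66.8, 81.9 and 123.4 in TAC hearts. The groups did not overlap, with TAC replicate 1 close above sham replicate 1 (1.68-fold, log2 difference 0.75, SE 0.22, adjusted p = 0.0957). It was the 1 gene of the list with an adjusted p under 0.10, which 8.25% of all genes passed as higher and 3.49% as lower. Ugp2, which makes the UDP-glucose for glycogen, gave 239.6, 221 and 206 against 238, 417 and 205. TAC replicate 2 alone was high (log2 difference 0.37, SE 0.25, adjusted p = 0.391), and without it the log2 fold change was -0.0341. Gys1, the muscle glycogen synthase (log2 difference -0.18, SE 0.14, adjusted p = 0.442), had fractional counts in all libraries and overlaps Ruvbl2 on the other strand.

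Both glycogen phosphorylase genes, whose products release glucose units from glycogen, had low values in TAC replicates 2 and 3. Pygm, the muscle type (chromosome 19, 6384399 to 6398459, plus strand), gave 1025, 1093 and 1053 in sham hearts and 971, 680.5 and 556 in TAC hearts, without overlap (log2 difference -0.52, SE 0.21, adjusted p = 0.166). Pygb, the brain type (chromosome 2, 150786735 to 150831758, plus strand), gave 835, 999 and 1026 against 875, 512 and 469, with TAC replicate 1 within the sham range (log2 difference -0.62, SE 0.25, adjusted p = 0.161). Without TAC replicate 1 both were called lower, Pygm at -0.79 (adjusted p = 0.0139) and Pygb at -0.97 (adjusted p = 0.00889).

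Isoform pairs were compared within each library as a ratio of FPKM, in which library scaling cancels. In 5 of the 10 pairs all TAC ratios lay above all sham ratios: Slc2a1 to Slc2a4, Hk1 to Hk2, Pfkl to Pfkm, Pgam1 to Pgam2 and Eno1 to Eno3. For these the exact permutation test (two-sided) returned p = 0.1, the smallest that 3 against 3 samples allow, and 0.2 adjusted over the 10 pairs. The design could therefore not bring a pair under 0.05. Of all single genes, 18.4% had all TAC values above all sham values and 13.1% below. No such rate is given for ratios of other genes, so whether 5 of 10 is unusual was not tested. The pairs were chosen with earlier results of these data known, and the Pfkl and Pfkp pairs share Pfkm.

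The ratio of Pgam1 to Pgam2 was 0.135, 0.121 and 0.140 in sham and 0.147, 0.305 and 0.569 in TAC. TAC replicate 1 was close to sham and TAC replicate 3 far above it. The mean difference was 1.16 log2 units, a 2.23-fold higher ratio, with SDs of 0.11 in sham and 0.98 in TAC. Eno1 to Eno3 was 0.164, 0.133 and 0.168 in sham and 0.196, 0.291 and 0.537 in TAC, a difference of 1.02 log2 units (SD 0.18 in sham and 0.73 in TAC). Both ratios rose in order over TAC replicates 1, 2 and 3, as did those of every other pair but Aldoc to Aldoa and Pygb to Pygm. Slc2a1 to Slc2a4 was 0.0376, 0.0374 and 0.0363 in sham, the tightest of the 10 pairs, and 0.0409, 0.0526 and 0.170 in TAC. Its difference of 0.95 log2 units was 0.32 without TAC replicate 3, so most of it rested on that library. Hk1 to Hk2 was 1.22, 1.21 and 1.12 in sham and 1.38, 1.69 and 2.14 in TAC, a difference of 0.53 log2 units (SD 0.07 in sham and 0.31 in TAC). Pfkl to Pfkm was 0.117, 0.114 and 0.0981 in sham and 0.131, 0.155 and 0.254 in TAC, a difference of 0.66 log2 units. For Pgam, Eno, Slc2a, Hk and Pfkl to Pfkm in that order, leaving out TAC replicate 1 gave differences of 1.66, 1.36, 1.35, 0.68 and 0.85, and leaving out TAC replicate 3 gave 0.68, 0.63, 0.32, 0.37 and 0.38.

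The other 5 pairs overlapped between groups. Pfkp to Pfkm was 0.0797, 0.0657 and 0.0725 in sham and 0.0691, 0.171 and 0.381 in TAC (1.19 log2 units, exact permutation p = 0.3, adjusted p = 0.375). Slc16a3 to Slc16a1 was 0.0212, 0.0249 and 0.0270 in sham and 0.0260, 0.0462 and 0.136 in TAC (1.17 log2 units, exact permutation p = 0.2, adjusted p = 0.333). In both, TAC replicate 1 lay within the sham range and the other TAC libraries above it. Ldha to Ldhb was 0.565, 0.532 and 0.525 in sham and 0.514, 0.642 and 0.896 in TAC, where TAC replicate 1 was the lowest of the 6 libraries (0.30 log2 units, exact permutation p = 0.4, adjusted p = 0.400). Pygb to Pygm was the 1 pair with a negative difference, -0.12 log2 units, with ratios of 0.599 to 0.716 in sham and 0.553 to 0.662 in TAC (exact permutation p = 0.4, adjusted p = 0.400). Aldoc to Aldoa rests on the few counts of Aldoc (1.05 log2 units, exact permutation p = 0.3, adjusted p = 0.375).

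**Figure D3:**
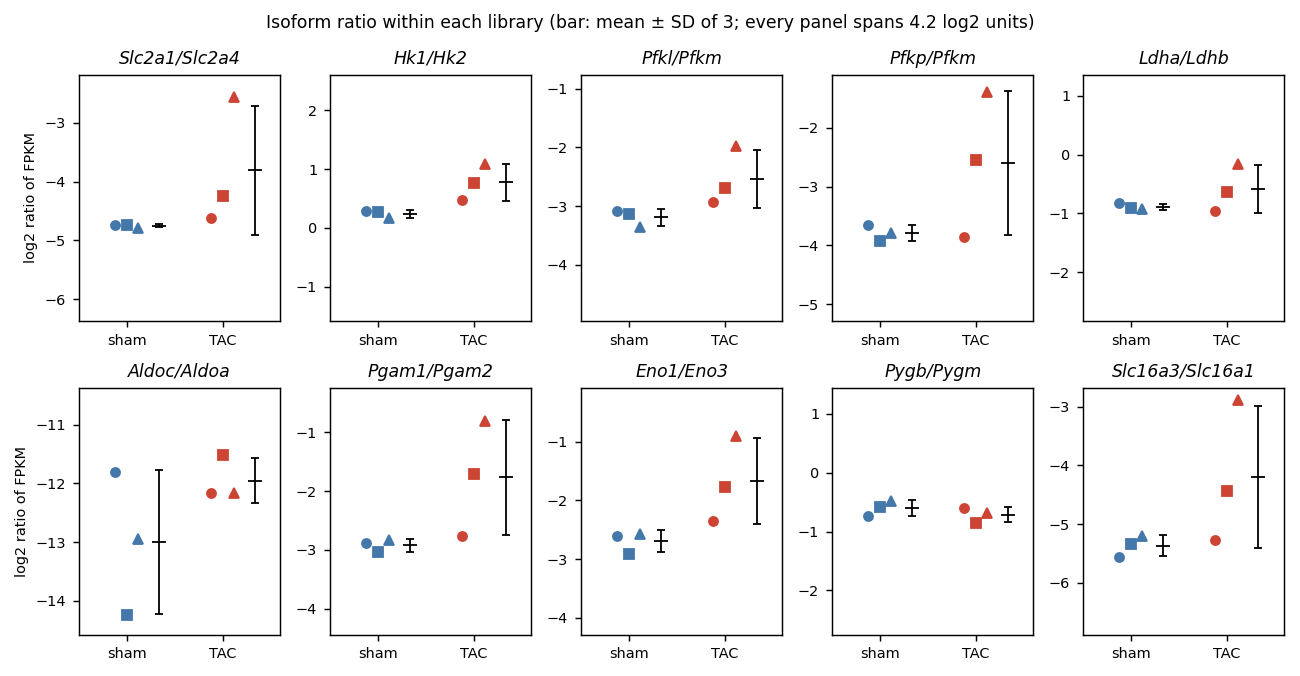
Log2 ratio of FPKM of the 2 genes of each pair in each library (sham blue, TAC red, 1 symbol per replicate number), with the mean and SD of 3 in black; each panel spans the same number of log2 units. Sham ratios are tight in every panel but Aldoc/Aldoa, and TAC replicate 3 (triangles) has the highest ratio in 8 of the 10 panels.

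Of 89 other genes of glucose metabolism, 83 were tested, and 6 had 0 counts in every library. Of those tested, 2 were called higher in TAC and 0 lower, beside 1.12% and 0.54% of all genes. One of them was Phka1, the muscle regulatory subunit of phosphorylase kinase, which activates glycogen phosphorylase (chromosome X, 102513975 to 102644246, minus strand). It rose from 62.0, 63.2 and 58.0 CPM to 86.1, 97.8 and 92.2 CPM. The 3 TAC values were close together (log2 difference 0.59, SE 0.11, adjusted p = 0.0413). With 1 library left out, Phka1 was past the threshold only without TAC replicate 1, and its adjusted p was between 0.0589 and 0.239 otherwise. Its log2 fold change stayed between 0.52 and 0.62 in these fits.

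In the other 6 lists 0 genes were called, and the 2 most abundant of each are named. Of 6 other glucose carriers, Slc2a8 was at -0.33 log2 units (SE 0.23) and Slc2a12, with fractional counts in all libraries, at -0.99 (SE 0.37, adjusted p = 0.148). Of 6 other tested genes of pyruvate dehydrogenase, the kinase Pdk4, a target of fatty acid signalling, gave 224, 1288 and 1369 CPM against 384, 158 and 339.6 CPM (log2 difference -1.71, SE 0.62, adjusted p = 0.136). Sham replicate 1 was far below the other sham libraries and below 2 of the TAC libraries. Dld, the dehydrogenase subunit that other complexes share, was at 0.10 (SE 0.19). Of 4 other genes of monocarboxylate transport, Bsg, the chaperone of MCT1 and MCT4, was at -0.22 (SE 0.17). Its homologue Emb ranged over 4.85 to 6.31 CPM in sham and 8.92 to 20.5 CPM in TAC, without overlap (log2 difference 1.47, SE 0.29, adjusted p = 0.0526).

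In the pentose phosphate and hexosamine branches, 10 of 13 genes had a positive log2 fold change, with a median of 0.42 beside 0.03 over all genes. In 6 of them all TAC values lay above all sham values (18.4% of all genes), while the abundant Taldo1 and Pgls were at 0.05 (SE 0.17) and -0.11 (SE 0.11). Of 12 genes of insulin signalling and glucose uptake, Txnip, an inhibitor of glucose uptake, gave 533, 940.1 and 958 CPM against 628, 445 and 407 CPM (log2 difference -0.72, SE 0.26, adjusted p = 0.140), and Akt1 was at -0.10 (SE 0.12). All TAC values lay below all sham values in 4 of these 12 genes (13.1% of all genes) and above them in 1. Of 12 genes around the hypoxia-inducible factors, the oxygen sensor Egln1 was at -0.27 (SE 0.22) and Bnip3, of mitochondrial removal, at 0.49 (SE 0.25), with a median of 0.02 for the list. Without TAC replicate 1, 14 of the 83 were called higher and 10 lower, where 13.2% and 10% of all genes were.

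**Figure D4:**
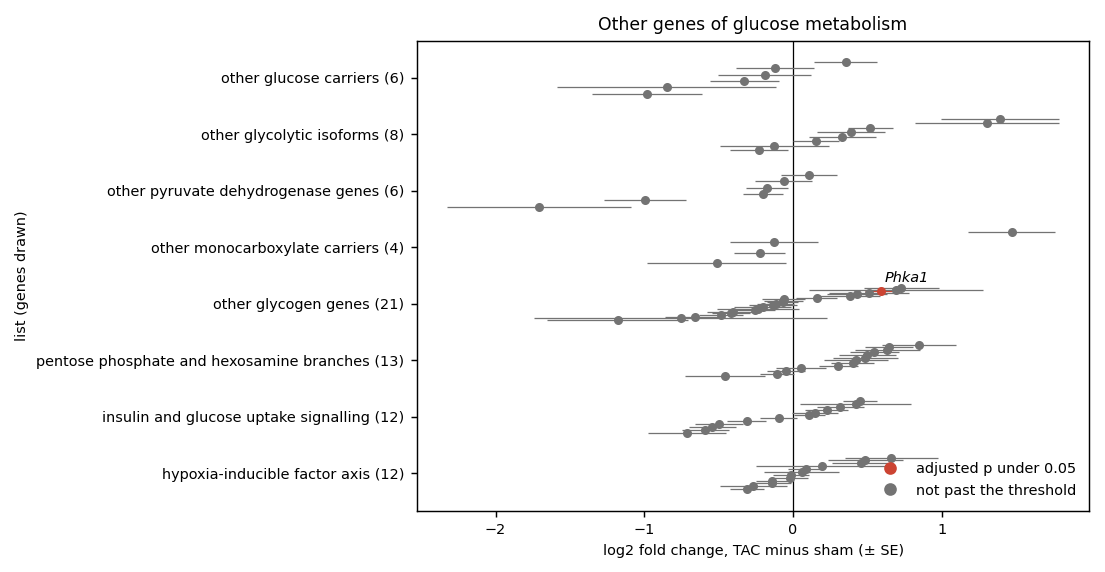
The edgeR log2 fold change of TAC over sham with its SE for other tested genes, by list (1 called gene is not drawn), with red for an adjusted p under 0.05 and grey for the rest. Phka1, at 0.59, is in red, and the pentose phosphate and hexosamine list lies mostly right of 0.

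Cell type markers also differed between libraries. Of all genes, 1.12% were called higher and 0.54% lower. The 8 cardiomyocyte markers (0 called) summed to 49402 to 50749.7 CPM in sham and 50757, 44916 and 35452 CPM in TAC, and the 38 glucose genes to 18737 to 19569 CPM and 19498, 16887 and 15280.5 CPM. Both sums were within the sham range or just above it in TAC replicate 1 and lowest in TAC replicate 3. Myh6 was the largest part of the cardiomyocyte sum, with 19105, 19392 and 20273 CPM in sham and 16543, 14267 and 11526 CPM in TAC. Of the 8 markers, 6 had a negative log2 fold change and 2 a positive one, Tnnt2 (0.17) and Actc1 (0.10). In TAC replicates 1 and 2 these 2 lay above every sham library, Tnnt2 at 3638 and 3749 CPM and Actc1 at 12136 and 11942 CPM. Macrophage and monocyte markers (3 of 10 called, higher) summed to 613 to 715 CPM in sham and 844, 1297 and 1115 CPM in TAC. Neutrophil markers (3 of 9 tested called, higher) summed to 6.29 to 13.4 CPM and 30.9, 171 and 162 CPM, and Ngp, Ltf and Camp were at 0 in at least 1 sham library. Red cell markers (2 of 6 tested called, higher) summed to 938 to 1634 CPM and 3484, 1925 and 2334 CPM. They were highest in TAC replicate 1. Endothelial markers (1 of 8 called, lower) summed to 1981 to 2093 CPM in sham and 1713 to 1932 CPM in TAC. All TAC values lay below all sham values in 4 of these 8 (13.1% of all genes) and above them in 1, Emcn (log2 difference 0.38, 18.4% of all genes). With 0 called in each list, fibroblast markers summed to 2118 to 2556 and 1815 to 2233 CPM, smooth muscle and pericyte markers to 1056 to 1294 and 863 to 1039 CPM, and lymphocyte markers to 4.41 to 5.77 and 8.04 to 29.6 CPM. The 5 adipocyte markers (0 called) summed to 45.1 to 198 CPM in sham and 7.40 to 92.2 CPM in TAC, with the lowest value in TAC replicate 3. In bulk tissue, fewer cells of a type and less RNA per cell cannot be told apart, and the part of these markers in the values of the glucose genes was not tested.

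**Figure D5:**
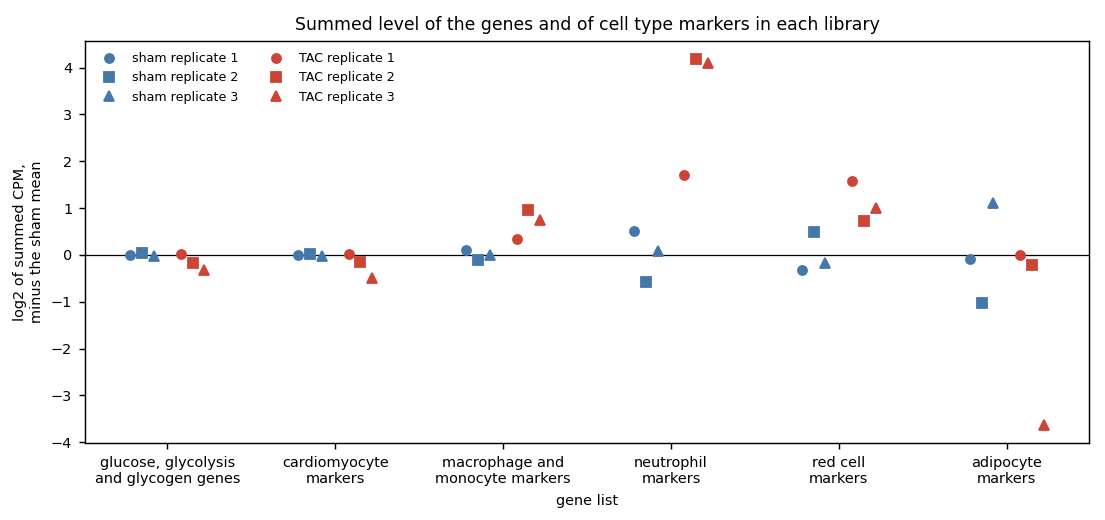
Log2 of the summed CPM of each list minus the mean of the sham libraries, for the 38 genes and for 5 marker lists, in each library (sham blue, TAC red, 1 symbol per replicate number). The 38 genes and the cardiomyocyte markers are lowest in TAC replicate 3, and the neutrophil markers are highest in TAC replicates 2 and 3.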

How the data were processed

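RNA of 6 hearts was extracted with Trizol, selected on oligo(dT) beads and sequenced on the Illumina platform, per the labels' protocols, which do not say that strand was kept. The deposited table holds an estimated count and an FPKM value per gene and library, per the file headers. The submitters' processing notes name Bowtie2 2.2.8, HISAT2, StringTie 1.3.1, DESeq2 and GRCm38; which of them made which column was not stated. A GENCODE annotation of GRCm38 gave symbols for 22255 of the 22298 identifiers.

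Estimated counts were rounded and TAC was compared with sham in edgeR 4.0.16 (R 4.3.3; genes kept by filterByExpr at a minimum count of 10; TMM; glmQLFit and glmQLFTest; two-sided), adjusting p-values over 13708 genes. A printed SE is the size of the log2 fold change over the square root of F. Alternatives used DESeq2 1.42.0 and limma 3.58.1. Isoform ratios used the deposited FPKM and an exact permutation test. The members, lists and pairs were chosen with earlier results of these data known. Named genes are the 38 members and, of each other list, the called genes or, where none was called, the 2 with the highest mean FPKM. The result of 1 called gene that this rule names is not reported here. Counting error and 3 samples per group limit the precision.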

Additional observations from a re-analysis of the deposited data

How the results depend on the processing

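The counts of called genes depended on TAC replicate 1 and on the test. Leaving out 1 library at a time gave 0 to 6 of the 38 genes higher and 0 to 7 lower, and 0 to 14 of the other pathway genes higher and 0 to 10 lower, the upper values all without TAC replicate 1. That fit called 13.2% of all genes higher and 10% lower. With any other library left out, between 0.086% and 0.964% of all genes were called in either direction. DESeq2's Wald test gave 5 and 1 of the 38, and 9 and 7 of the 83 others (higher and lower; 7.26% and 4.06% of all genes). At an adjusted p under 0.10, 1 of the 38 was higher, and 9 of the others were higher and 5 lower (8.25% and 3.49% of all genes). With no filter on low counts, with limma-trend on log2(FPKM + 1), and with an absolute log2 fold change of at least 1, the 2 higher pathway genes became 1. Of all genes, 0.66% were called higher with no filter and 0.51% with limma-trend, against 1.12% in the main fit. The share of all genes at that fold change is not given. Deviations from the group means had correlations of 0.01, -0.11 and -0.02 for equal replicate numbers, and from -0.06 to 0.11 for unequal ones. With 3 samples per group, these values cannot settle whether the numbers pair the samples. With the replicate number as a block, 0 of the 38 and 1 other pathway gene were called, where 0.35% of all genes were called higher and 0.19% lower. The log2 fold changes that changed sign were near 0 or rested on 1 library, and the cause was not tested. Aldoa was 0.0168 at a minimum count of 100 and 0.00462 with limma-trend. Pkm was -0.0142 with DESeq2 size factors, -0.0127 with no filter, -0.0148 without mitochondrially encoded genes, -0.0155 with the Wald test and -0.0107 with limma-trend. Leaving out 1 library gave log2 fold changes from -0.14 to 0.0750 for Aldoa, -0.0241 to 0.63 for Pfkfb1, -0.16 to 0.0879 for Tpi1, -0.0874 to 0.0638 for Pkm, -0.22 to 0.0227 for Pdha1, -0.0341 to 0.55 for Ugp2, -0.0224 to 0.26 for Dld and -0.16 to 0.16 for Taldo1. No isoform ratio changed sign under any alternative run.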
